A study of Homo sapiens with 6 samples.

Results

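Replication licensing and fork genes encode the proteins that mark replication origins, load and fire the replicative helicase, and copy DNA at the fork. The set holds 49 genes, chosen by symbol from the 61552 rows of the deposited gene table and arranged here in 12 functional groups. It was chosen with earlier results of these data known. Poly(A) RNA was measured in SKOV3, an ovarian cancer cell line known for amplified ERBB2. The fenbendazole group (libraries 7, 8 and 9) had been exposed for 48 h to 1 µM of this benzimidazole, an antiparasitic compound that binds tubulin. The DMSO group (libraries 10, 11 and 12) had received the solvent over the same 48 h. All 6 libraries share the cell line, the labels name no altered allele, and the question posed by the design is how the drug changes the transcriptome.

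In G1 the origin recognition complex (ORC), CDC6 and CDT1 place the MCM2-7 helicase on DNA as an inactive ring, which licenses the origin. In S phase the kinase DBF4-CDC7 and cyclin-dependent kinases recruit CDC45 and the GINS complex, and the helicase starts to unwind. DNA polymerase alpha-primase then lays primers, polymerases delta and epsilon extend them, and the clamp PCNA, loaded by replication factor C, holds polymerases on DNA. Many of these genes are transcribed under the control of E2F factors at the border of G1 and S. Their RNA is therefore widely read as a mark of cycling cells. In RNA from a whole culture, more cells of a cycle phase and more RNA per cell cannot be told apart.

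With fenbendazole, 35 of the 49 genes rose and 0 fell, by edgeR's quasi-likelihood test at a Benjamini-Hochberg adjusted p of 0.05 over all 17363 genes tested. Over all genes tested, 3.11% rose and 0.921% fell in that comparison. All 49 fold changes were above 0, so that 0 genes were lower at an unadjusted p of 0.05 too, and 0 were lower by DESeq2 and limma-voom. The median log2 fold change was 1.13 over the 49 genes, a 2.19-fold difference, and -0.06 over all tested genes. All 49 had passed the filter on low counts. The summed level of the 49 genes was 3148, 3210 and 3256 CPM (counts scaled to library size with the TMM method) in fenbendazole 7, 8 and 9, against 1652, 1492 and 1542 CPM in DMSO 10, 11 and 12. Every fenbendazole library thus held more of this RNA than any DMSO library. In 43 of the 49 genes the fenbendazole libraries all lay above the DMSO libraries, a pattern seen in 17% of all tested genes. The opposite pattern was seen in 0 of the 49 and in 15.5% of all tested genes.

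The largest fold changes were those of MCM10, DBF4, CLSPN and CDC45, each more than 4-fold. At the other end stood ORC5, POLD2, ORC2 and ORC4, at 1.12, 1.12, 1.16 and 1.20-fold, none past the threshold. The spread differed between the groups. The median coefficient of variation of the 49 genes was 5.02% among fenbendazole libraries and 17.1% among DMSO libraries, and over all tested genes it was 10.2% and 25.7%.

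**Figure D1:**
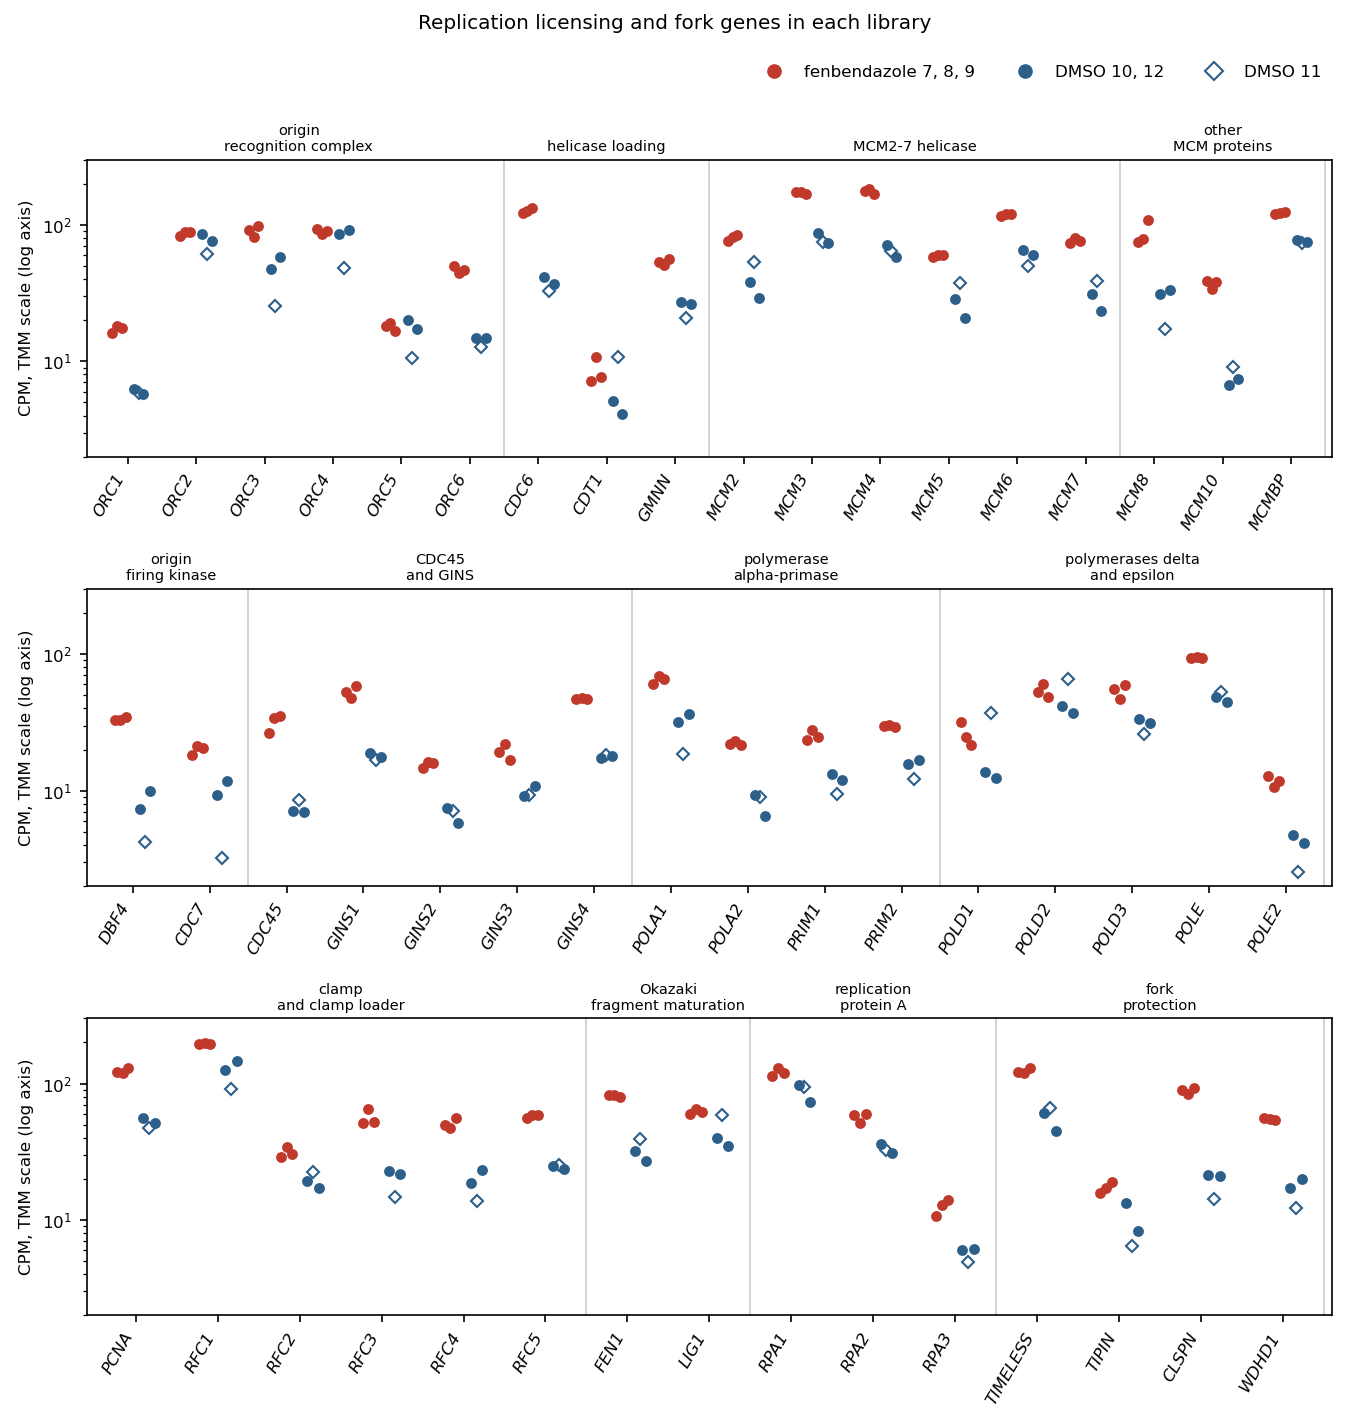
Level of each gene in each library, in CPM on a log axis, in 12 functional groups. Filled red circles are fenbendazole 7, 8 and 9, filled blue circles DMSO 10 and 12, and open diamonds DMSO 11. In 43 of 49 genes all red points lie above all blue ones, and the exceptions are ORC2, ORC4, ORC5, CDT1, POLD1 and POLD2.

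Total counts were 14127578 to 17452459 in fenbendazole libraries and 13170775 to 22128930 in DMSO libraries, and the lowest count of any of the 49 genes in any library was 55. Keratin and other markers of ovarian carcinoma cells summed to 5611 to 6155 CPM with fenbendazole and 9514 to 18090 CPM in DMSO, mostly ERBB2. Fibroblast markers summed to 63.5 to 66.7 and 62.7 to 103.9 CPM, endothelial markers to 13.4 to 14.4 and 10.4 to 12.4 CPM, and leukocyte markers to 0.662 to 1.804 and 0.334 to 0.967 CPM in the same order of groups. The T cell genes CD3D and CD3E and the B cell gene MS4A1 had 0 counts in all 6 libraries. Of the 10 carcinoma markers ERBB2 (0.408-fold) and CD24 (0.429-fold) were called lower, where 0.921% of all tested genes fell. The others did not pass. Among them KRT7 (2.06-fold) lay above DMSO without overlap, PAX8 (0.764-fold) and MUC16 (0.759-fold) lay below without overlap, and the rest overlapped. DMSO 11 stood apart from the other controls. It held 15880 CPM of ERBB2, against 8585 and 7806 CPM in DMSO 10 and 12. It held 182.5 CPM of KRT7, against 76.7 and 71.3 CPM in DMSO 10 and 12. The fold values of both genes and the highest carcinoma marker sum include that library. Its counts differed from those of DMSO 10 and 12 by a chi-square of 79.2 and 87.2 for each degree of freedom, while DMSO 10 and 12 differed from each other by 8.47 and fenbendazole pairs by 4.86 to 6.94.

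Among the 49 genes DMSO 11 was below both other DMSO libraries for 26, above both for 15 and between them for 8. The deviation followed base composition: across the 49 genes its Pearson correlation with the GC content of the longest annotated transcript was 0.88, a description in which all points share the same 3 libraries. Across the 16975 tested genes with a GC value it was 0.76. POLD1 and CDT1, the genes of the highest GC content at 65.0% and 64.9%, were 1.5 and 1.21 log2 units higher in DMSO 11 than in the mean of DMSO 10 and 12. CDC7, with 39.1% GC, was 1.71 log2 units lower (-1.71). Pearson's r between GC content and the log2 fold change was -0.26 over the 49 genes with all libraries and 0.083 without DMSO 11. The part of base composition in each result was not tested gene by gene, and fold changes without DMSO 11 stand beside the genes they concern.

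**Figure D2:**
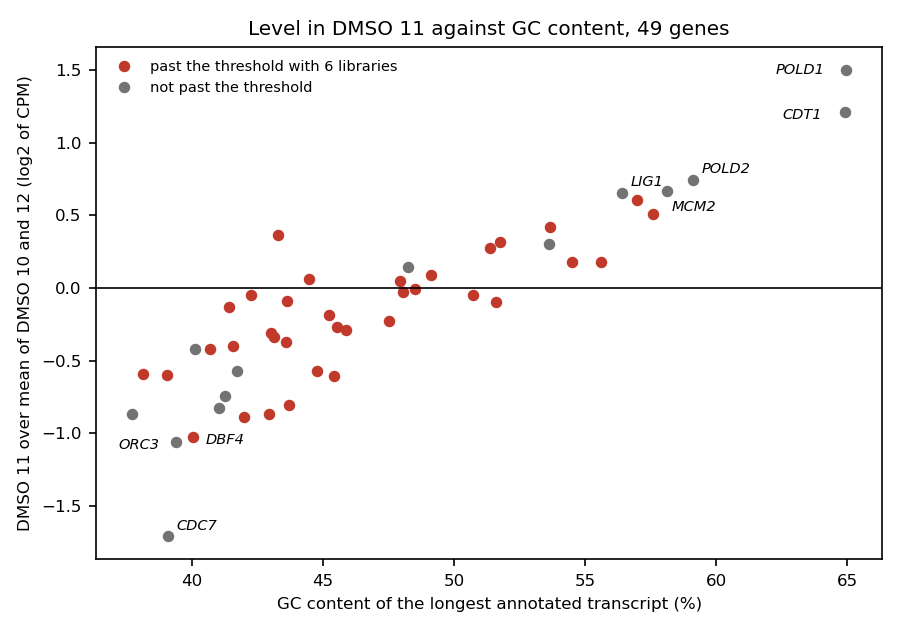
For each of the 49 genes, the log2 ratio of its CPM in DMSO 11 to the mean of DMSO 10 and 12 (vertical axis) against the GC content of its longest annotated transcript in percent (horizontal axis). Red points passed the threshold with 6 libraries and grey points did not. GC-rich genes such as POLD1 (1.5) lie above 0 and GC-poor genes such as CDC7 (-1.71) below it.

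Without DMSO 11, 46 of the 49 genes rose and 0 fell, in a fit where 13.1% of 17689 tested genes rose and 9.23% fell. Its p-values rest on the 2 controls most alike and may understate the spread between controls. The 3 genes that did not pass there were ORC2, ORC4 and ORC5. Without fenbendazole 7, 8 and 9 in turn, 13, 12 and 13 genes rose, against 0.763%, 0.787% and 0.793% of all tested genes, and 0 fell. Without DMSO 10 and DMSO 12 they numbered 19 and 29, against 1.4% and 2.32% of all tested genes, and again 0 fell. The genes that passed in each of these 6 fits were ORC6, CDC6, MCM3, MCM4, MCM10, CDC45, GINS1, GINS4, PCNA, RFC5, CLSPN and WDHD1, 12 in all. The other 23 calls were lost in at least 1 fit, with adjusted p from 0.0506 to 0.206 where they were lost. The median log2 fold change of the 49 genes moved little. It was 1.19, 1.14 and 1.15 without fenbendazole 7, 8 and 9, fits that keep all 3 controls, DMSO 11 included. Without DMSO 10, 11 and 12 it was 1.23, 1.1 and 1.16. With GC and length offsets in place of leaving out a library, 46 genes rose, against 12.1% of all tested genes, where 9.5% fell. DESeq2 called 41 (6.11% of all tested genes rose and 4.28% fell) and limma-voom 36 (3.23% rose). Other scalings gave 35 with median-of-ratios factors (3.15% of all rose) and 32 with upper-quartile factors (2.62%). The count was 35 both without a filter (1.34%) and with a filter of 1 CPM (4.33%), and 33 with FPKM values at a pseudocount of 1 (3.41%) or 0.1 (3.21%). At an adjusted p of 0.01 it was 18 (1.11%), and in a test against a 1.5-fold change 17 (1.15%).

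**Figure D3:**
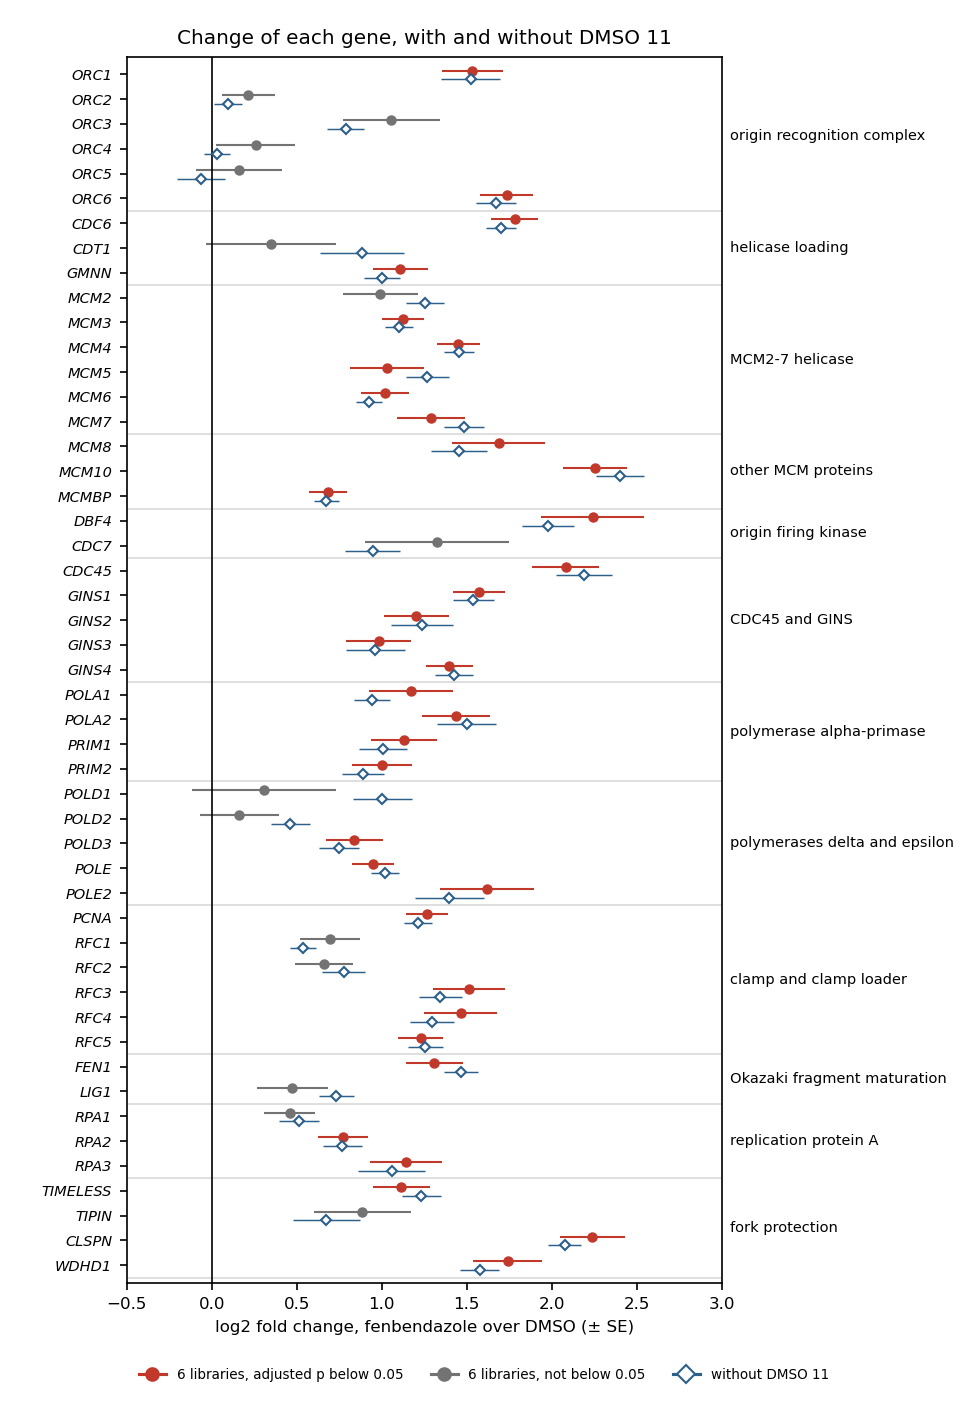
Log2 fold change of each gene, fenbendazole over DMSO, with its standard error (SE). Circles are the fit to 6 libraries, red where the adjusted p was below 0.05 and grey where it was not, and open diamonds are the fit without DMSO 11. Of the 49 circles 35 are red, and ORC2, ORC4 and ORC5 lie near 0 in both fits.

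The subunits of ORC did not move together. ORC1 and ORC6 rose about 3-fold, while ORC2, ORC4 and ORC5 were within 1.20-fold of the controls and did not pass. ORC1, the subunit whose protein is degraded and remade in each cell cycle (ENSG00000085840, chromosome 1, 52372829 to 52404423, GRCh38), had 16.2, 18.2 and 17.5 CPM with fenbendazole, against 6.24, 5.84 and 5.80 CPM in DMSO. The groups were far apart and the 3 controls, DMSO 11 included, agreed within 0.5 CPM. Its log2 fold change was 1.53 ± 0.179 (SE, adjusted p = 0.00480), and 1.52 ± 0.173 without DMSO 11. Without fenbendazole 8 its adjusted p was 0.0506.

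ORC6, the smallest subunit, which helps to load the helicase (ENSG00000091651, chromosome 16, 46689643 to 46698394), had 49.9, 44.4 and 46.4 CPM with fenbendazole, against 14.8, 12.6 and 14.8 CPM in DMSO. That is a 3.33-fold difference (log2 1.74 ± 0.155, adjusted p = 0.00152). ORC2, ORC4 and ORC5, parts of the stable core of the complex, overlapped between the groups. ORC2 had 82.9, 88.5 and 87.8 CPM with fenbendazole, against 86.0, 60.7 and 76.5 CPM in DMSO. ORC4 had 93.5, 85.6 and 89.8 CPM with fenbendazole, against 85.7, 48.4 and 90.8 CPM in DMSO. ORC5 had 18.0, 19.1 and 16.6 CPM with fenbendazole, against 20.2, 10.6 and 17.3 CPM in DMSO (log2 0.16 ± 0.256, adjusted p = 0.746). In all 3 genes the low control was DMSO 11. Without that library their log2 fold changes were 0.10 ± 0.0825 for ORC2, 0.030 ± 0.0785 for ORC4 and -0.064 ± 0.142 for ORC5, with adjusted p of 0.464, 0.828 and 0.798. ORC3, also a core subunit, had 92.4, 80.8 and 98.4 CPM with fenbendazole, against 47.7, 25.2 and 57.8 CPM in DMSO. Its groups did not overlap, but its log2 fold change of 1.06 ± 0.286 missed the threshold (adjusted p = 0.0923). Without DMSO 11 it was 0.79 ± 0.109 and passed (adjusted p = 0.000184).

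Levels per transcript length, as the deposited FPKM, give an approximate view of how the RNA of subunits compares. These values are scaled for gene length and library size, and no scaling for GC content is named. ORC1 was the scarcest subunit in both groups, at 4.71 ± 0.293 FPKM with fenbendazole and 1.71 ± 0.0657 FPKM in DMSO (SD, n = 3 each). ORC6 stood at 26.1 ± 1.58 FPKM with fenbendazole and 8.29 ± 0.850 FPKM in DMSO. ORC2 stood at 18.6 ± 0.709 and 17.1 ± 1.74 FPKM in the same groups. As a share of the summed FPKM of the 6 subunits, ORC6 made up 25.3%, 23.8% and 23.8% in fenbendazole 7, 8 and 9, against 11.3%, 14.5% and 11.3% in DMSO 10, 11 and 12. ORC4 made up 14.3 ± 0.410% with fenbendazole and 23.2 ± 1.64% in DMSO, and ORC2 17.3 ± 1.12% and 25.6 ± 4.23%. Each of these 3 shares separated the groups, with an exact two-sided permutation p of 0.1, the smallest that 3 against 3 libraries allow. Adjusted over the 33 subunit shares compared in 7 sets of subunits, p was 0.206 at the least, so none could pass. Polymerases delta and epsilon, separate enzymes, were pooled as a single set.

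**Figure D4:**
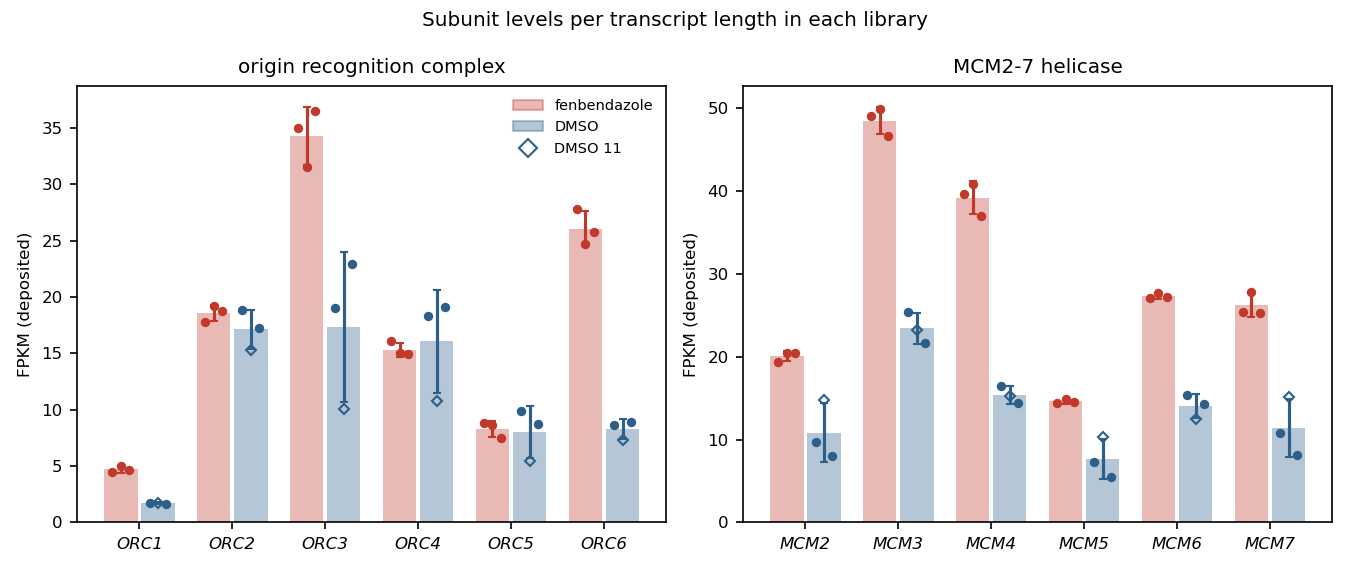
Deposited FPKM of the subunits of ORC (left) and of the MCM2-7 helicase (right). Bars are group means with the SD of 3 libraries as error bars, and points are single libraries, with DMSO 11 as an open diamond. ORC1, ORC3 and ORC6 are higher in every fenbendazole library while ORC2, ORC4 and ORC5 overlap with DMSO. All 6 MCM genes are higher in every fenbendazole library.

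Since most of the 49 genes moved in the same direction, their promoters are described here. A window from 250 bases before to 50 bases after the annotated start (RefSeq, GRCh38.p14) was found for 43 of the 49 genes. An E2F motif, taken as TTTCCCGC, TTTGGCGC, TTTCGCGC or TTTGCCGC on either strand, stood in 19 of the 43 windows (44.2%) and in 5.26% of the 11701 windows of tested genes. Among the genes that rose it stood in 15 of 29 windows and among those that did not pass in 4 of 14, namely ORC3, CDT1, MCM2 and LIG1. These 4 did pass in the fit without DMSO 11, where 13.1% of all tested genes rose. The windows of ORC1, ORC2, ORC4, ORC5 and ORC6 held none, and of these ORC1 and ORC6 rose. Of the genes that rose more than 4-fold, MCM10, DBF4 and CDC45 held none either, and CLSPN held a motif. The windows of GINS3, MCMBP and GINS1 lie 97391, 18975 and 16665 bases from the start of the deposited gene span and may not be the promoter in use. A CCAAT box (CCAAT on either strand), the site of NF-Y, stood in 53.5% of the windows of these genes and 36.6% of all. A CHR motif (TTTGAA or TTCGAA), bound by the MuvB complex at genes of G2 and mitosis, stood in 4.65% and 11.4%. A match describes letters and is not evidence of binding. The 160 bases that end at the annotated start are shown for examples picked by hand, which do not stand for all windows. The examples are 4 genes that rose and carry an E2F motif there, and the core subunits ORC2 and ORC4, which do not. The bases read 5′ to 3′ on the strand of the gene, with E2F motifs in capitals. The paired matches of MCM6 overlap on opposite strands.
MCM6 (chr2:135876444-135876603, minus strand): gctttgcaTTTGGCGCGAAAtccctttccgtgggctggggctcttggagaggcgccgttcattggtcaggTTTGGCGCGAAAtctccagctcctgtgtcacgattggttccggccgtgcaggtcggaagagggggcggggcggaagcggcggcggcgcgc
PCNA (chr20:5126623-5126782, minus strand): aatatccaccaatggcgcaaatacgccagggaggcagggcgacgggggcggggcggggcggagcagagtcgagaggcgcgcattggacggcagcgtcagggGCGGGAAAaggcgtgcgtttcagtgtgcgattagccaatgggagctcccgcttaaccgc
POLA2 (chr11:65261802-65261961, plus strand): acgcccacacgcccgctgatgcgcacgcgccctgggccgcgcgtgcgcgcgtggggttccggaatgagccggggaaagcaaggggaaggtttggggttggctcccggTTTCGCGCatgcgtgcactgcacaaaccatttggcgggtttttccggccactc
RFC3 (chr13:33817989-33818148, plus strand): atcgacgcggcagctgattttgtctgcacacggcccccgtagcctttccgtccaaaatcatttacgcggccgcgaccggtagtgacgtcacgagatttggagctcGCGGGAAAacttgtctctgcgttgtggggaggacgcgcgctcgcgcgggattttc
ORC2 (chr2:200963661-200963820, minus strand): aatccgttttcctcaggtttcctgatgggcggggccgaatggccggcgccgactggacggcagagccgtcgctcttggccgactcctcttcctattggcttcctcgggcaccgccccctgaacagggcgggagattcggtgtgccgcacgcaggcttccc
ORC4 (chr2:148021552-148021711, minus strand): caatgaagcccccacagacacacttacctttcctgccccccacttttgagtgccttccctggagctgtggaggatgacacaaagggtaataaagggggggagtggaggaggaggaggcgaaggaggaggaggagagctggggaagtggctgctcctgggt

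Of the helicase loaders and their inhibitor, CDC6 and GMNN rose and CDT1 did not pass. CDC6, the ATPase that joins ORC to load MCM2-7 (ENSG00000094804, chromosome 17, 40287879 to 40304657), had 123, 127 and 133 CPM with fenbendazole, against 41.7, 32.6 and 37.0 CPM in DMSO. This 3.44-fold difference (log2 1.78 ± 0.140, adjusted p = 0.00103) left a wide gap between the groups. GMNN, which encodes geminin, the inhibitor of CDT1 that blocks relicensing after S phase has begun, had 53.2, 50.7 and 56.0 CPM with fenbendazole, against 27.2, 20.7 and 26.3 CPM in DMSO. Its log2 fold change was 1.11 ± 0.161 (adjusted p = 0.0115), and its call was lost without fenbendazole 7, 8 or 9 (adjusted p from 0.0696 to 0.0924). CDT1, which brings MCM2-7 to ORC and CDC6, had 7.22, 10.7 and 7.66 CPM with fenbendazole, against 5.13, 10.7 and 4.09 CPM in DMSO, where the high control was DMSO 11. With 6 libraries its log2 fold change was 0.35 ± 0.384 (adjusted p = 0.627). Without DMSO 11 it was 0.88 ± 0.246 and passed (adjusted p = 0.0196). Per length, GMNN stood at 10.6 to 16.6 times the FPKM of CDT1 in fenbendazole libraries, against 12.1 and 13.8 times in DMSO 10 and 12 and 4.38 times in DMSO 11, so these ratios overlapped.

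All 6 genes of the MCM2-7 helicase had fenbendazole libraries above DMSO libraries, and 5 of them rose. Fold differences lay close together, from 1.99-fold for MCM2 to 2.73-fold for MCM4. MCM4 (ENSG00000104738, chromosome 8, 47960185 to 47978160) had 176, 182 and 168 CPM with fenbendazole, against 70.7, 63.8 and 57.9 CPM in DMSO, and a log2 fold change of 1.45 ± 0.128 (adjusted p = 0.00144). MCM3 had 173, 175 and 167 CPM with fenbendazole, against 87.2, 75.0 and 73.3 CPM in DMSO (log2 1.13 ± 0.124, adjusted p = 0.00374). MCM6 had 117, 119.8 and 119.6 CPM with fenbendazole, against 65.4, 49.9 and 60.3 CPM in DMSO (log2 1.02 ± 0.140, adjusted p = 0.00918). All 3 showed controls that were well below the treated libraries, DMSO 11 included. MCM7 and MCM5 rose 2.45-fold and 2.05-fold.

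MCM2, the exception, had 76.7, 80.8 and 83.5 CPM with fenbendazole, against 38.1, 53.6 and 29.3 CPM in DMSO. DMSO 11 was the highest control for MCM2, MCM5 and MCM7, whose transcripts have 57.0% to 58.1% GC. With 6 libraries the log2 fold change of MCM2 was 0.99 ± 0.220 (adjusted p = 0.0549), and without DMSO 11 it was 1.26 ± 0.112 (adjusted p = 2.40e-06). The calls of MCM5, MCM6 and MCM7 were lost without each fenbendazole library, that of MCM5 also without DMSO 10 and DMSO 12 and that of MCM7 also without DMSO 10, with adjusted p from 0.0632 to 0.203. The call of MCM5 was also lost with upper-quartile scaling and with FPKM values.

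The ring needs its 6 subunits in equal number, but their RNA levels per length differed. The sum of the 6 FPKM values was 175, 182 and 171 with fenbendazole, against 85.1, 91.2 and 71.9 in DMSO. MCM3 was the most abundant at 48.5 ± 1.66 FPKM with fenbendazole and 23.4 ± 1.91 FPKM in DMSO, and MCM5 the least at 14.6 ± 0.291 and 7.67 ± 2.43 FPKM (SD, n = 3 each). The highest subunit stood 3.40, 3.33 and 3.21 times above the lowest in fenbendazole 7, 8 and 9, against 3.51, 2.25 and 3.95 times in DMSO 10, 11 and 12. Within the complex the share of MCM4 was 22.7%, 22.5% and 21.6% with fenbendazole, against 19.4%, 16.7% and 20.0% in DMSO. It was the single MCM2-7 share that separated the groups with all 6 libraries (exact permutation p = 0.1, the smallest possible). Without DMSO 11 the shares of MCM3, MCM6 and MCM7 separated the groups too (exact permutation p = 0.1 each, again the smallest possible). MCM7 was then higher with fenbendazole, and MCM3 and MCM6 lower.

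The other MCM proteins all rose. MCM10, which is needed to activate the loaded helicase (ENSG00000065328, chromosome 10, 13161558 to 13211110), had 39.1, 33.6 and 37.8 CPM with fenbendazole, against 6.69, 9.04 and 7.36 CPM in DMSO. At 4.77-fold (log2 2.26 ± 0.187, adjusted p = 0.00120) it had the largest change of the 49 genes. MCM8, which works with MCM9 in recombination, had 74.7, 79.3 and 108 CPM with fenbendazole, against 31.0, 17.3 and 33.2 CPM in DMSO (log2 1.69 ± 0.275, adjusted p = 0.0174). Its partner MCM9, not one of the 49, had 32.3, 30.2 and 29.9 CPM with fenbendazole, against 32.7, 26.7 and 36.1 CPM in DMSO, with overlapping groups (log2 -0.047 ± 0.165). MCMBP, a chaperone of MCM subunits, had 119, 122 and 124 CPM with fenbendazole, against 78.0, 73.9 and 75.1 CPM in DMSO, a difference of 1.61-fold (log2 0.68 ± 0.112, adjusted p = 0.0170). The calls of MCM8 and MCMBP were lost without each fenbendazole library and without DMSO 10 (adjusted p from 0.0656 to 0.131).

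At the step of origin firing DBF4 rose and CDC7 missed the threshold. DBF4, the regulatory subunit that activates the kinase CDC7 (ENSG00000006634, chromosome 7, 87876216 to 87909553), had 32.9, 33.2 and 34.5 CPM with fenbendazole, against 7.30, 4.21 and 9.89 CPM in DMSO. Treated libraries agreed closely and controls spread more than 2-fold, with DMSO 11 the lowest. The log2 fold change of DBF4 was 2.24 ± 0.303 (adjusted p = 0.00918), and 1.98 ± 0.152 without DMSO 11. Its adjusted p was 0.0523 to 0.0648 without fenbendazole 7, 8 or 9 or DMSO 10. CDC7 had 18.3, 21.3 and 20.4 CPM with fenbendazole, against 9.25, 3.203 and 11.7 CPM in DMSO, again with DMSO 11 the lowest. With 6 libraries its log2 fold change was 1.33 ± 0.424 (adjusted p = 0.134), and without DMSO 11 it was 0.95 ± 0.163 (adjusted p = 0.000922). Per length, DBF4 stood at 1.82, 1.802 and 1.64 times CDC7 in fenbendazole libraries, against 0.910, 1.23 and 0.788 times in DMSO libraries.

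CDC45 and the GINS complex join MCM2-7 to form the active helicase, and all 5 of their genes rose. CDC45 (ENSG00000093009, chromosome 22, 19479457 to 19520612) had 26.3, 34.1 and 35.2 CPM with fenbendazole, against 7.08, 8.47 and 6.92 CPM in DMSO, a 4.24-fold difference (log2 2.08 ± 0.198, adjusted p = 0.00201). GINS1 had 53.2, 47.8 and 58.0 CPM with fenbendazole, against 19.0, 16.7 and 17.6 CPM in DMSO (log2 1.57 ± 0.153, adjusted p = 0.00227). GINS4 had 46.8, 47.5 and 47.3 CPM with fenbendazole, against 17.3, 18.3 and 18.1 CPM in DMSO (log2 1.40 ± 0.138, adjusted p = 0.00242). In GINS4 the replicates of each group lay within about 1 CPM of each other. GINS2 and GINS3 rose less, 2.30-fold and 1.98-fold, and GINS3 had the largest p of the group. It had 19.1, 22.1 and 16.7 CPM with fenbendazole, against 9.14, 9.35 and 10.8 CPM in DMSO, with a log2 fold change of 0.98 ± 0.191 (adjusted p = 0.0334). Their calls were lost without each fenbendazole library and without DMSO 10, and that of GINS3 also without DMSO 12 (adjusted p from 0.0573 to 0.191). Within the GINS complex, whose subunits also stand in equal number in the protein, GINS3 made up 19.4%, 22.8% and 16.7% of the summed FPKM with fenbendazole, against 23.7%, 25.2% and 28.3% in DMSO.

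All 4 subunits of DNA polymerase alpha-primase rose, by a narrow range of 2.01-fold to 2.71-fold. POLA2, the accessory subunit (ENSG00000014138, chromosome 11, 65261920 to 65305589), whose span is shared with another gene of the same strand, had 21.98, 23.2 and 21.7 CPM with fenbendazole, against 9.25, 8.91 and 6.47 CPM in DMSO, and a log2 fold change of 1.44 ± 0.1995 (adjusted p = 0.00963). PRIM1, the catalytic primase subunit, had 23.6, 27.7 and 24.8 CPM with fenbendazole, against 13.3, 9.43 and 11.98 CPM in DMSO (log2 1.13 ± 0.193, adjusted p = 0.0202). PRIM2, the large primase subunit, had 29.9, 30.4 and 29.1 CPM with fenbendazole, against 15.7, 12.2 and 16.7 CPM in DMSO (log2 1.004 ± 0.177, adjusted p = 0.0221). POLA1, the polymerase itself, had 60.5, 69.5 and 65.3 CPM with fenbendazole, against 31.9, 18.6 and 36.4 CPM in DMSO. Groups were separate in all 4 genes, and the lowest control was DMSO 11 in POLA1, PRIM1 and PRIM2. POLA1 had the largest p of the group (log2 1.17 ± 0.247, adjusted p = 0.0463), a call lost with upper-quartile scaling and with FPKM. Without DMSO 11 it was 0.94 ± 0.106 (adjusted p = 2.41e-05). Each of the 4 calls was lost without each fenbendazole library, with adjusted p from 0.0703 to 0.196. Those of POLA1, PRIM1 and PRIM2 were also lost without DMSO 10 (adjusted p from 0.0548 to 0.121). The adjusted p of PRIM1 was 0.0512 without DMSO 12.

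Of the replicative polymerase genes in the set, POLE, POLE2 and POLD3 rose and POLD1 and POLD2 did not pass. POLE, the catalytic subunit of polymerase epsilon, which copies the leading strand (ENSG00000177084, chromosome 12, 132623753 to 132687376), had 93.7, 95.1 and 93.3 CPM with fenbendazole, against 48.5, 52.8 and 44.8 CPM in DMSO (log2 0.95 ± 0.124, adjusted p = 0.00790). POLE2, its second subunit, had 12.8, 10.6 and 11.7 CPM with fenbendazole, against 4.74, 2.54 and 4.17 CPM in DMSO (log2 1.62 ± 0.277, adjusted p = 0.0210). Both were separate between groups, at 1.93-fold and 3.08-fold. POLD3, an accessory subunit of polymerase delta, had 56.0, 46.9 and 59.7 CPM with fenbendazole, against 33.4, 26.1 and 31.5 CPM in DMSO. It rose 1.79-fold (log2 0.84 ± 0.167, adjusted p = 0.0362), a call lost with upper-quartile scaling. The calls of POLE, POLE2 and POLD3 were lost without each fenbendazole library, those of POLE2 and POLD3 without DMSO 10 and that of POLD3 without DMSO 12 (adjusted p from 0.0509 to 0.206).

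POLD1 and POLD2, the catalytic subunit of polymerase delta and its main partner, did not pass with 6 libraries. POLD1 had 32.0, 24.7 and 21.4 CPM with fenbendazole, against 13.7, 36.9 and 12.3 CPM in DMSO. DMSO 11 was above every treated library while DMSO 10 and 12 were below all of them. With 6 libraries its log2 fold change was 0.31 ± 0.424 (adjusted p = 0.705), and without DMSO 11 it was 1.004 ± 0.172 (adjusted p = 0.000957). POLD2 had 52.4, 60.8 and 48.8 CPM with fenbendazole, against 41.6, 65.9 and 37.0 CPM in DMSO. Its log2 fold change was 0.16 ± 0.234 (adjusted p = 0.718) with 6 libraries and 0.46 ± 0.116 (adjusted p = 0.0108) without DMSO 11. Even in that fit its change was below those of POLD1, POLD3, POLE and POLE2. As a share of the summed FPKM of the 5 polymerase subunits, POLD2 made up 39.3%, 47.6% and 38.9% with fenbendazole, against 52.7%, 60.9% and 52.7% in DMSO (exact permutation p = 0.1). That sum pools both enzymes and leaves out POLE3, POLE4 and POLD4, so it is not a share within a single complex.

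Of the clamp and the 5 genes of its loader, PCNA, RFC3, RFC4 and RFC5 rose, and RFC1 and RFC2 did not pass. PCNA, the sliding clamp (ENSG00000132646, chromosome 20, 5114953 to 5126626), had 122, 120.2 and 129.8 CPM with fenbendazole, against 55.7, 47.1 and 51.7 CPM in DMSO, and a log2 fold change of 1.27 ± 0.126 (adjusted p = 0.00246). It had the highest FPKM of the 49 genes in both groups, at 82.5 ± 2.05 with fenbendazole and 36.1 ± 1.70 in DMSO (SD, n = 3 each). RFC5 had 55.8, 59.3 and 58.4 CPM with fenbendazole, against 25.1, 25.3 and 23.5 CPM in DMSO (log2 1.23 ± 0.133, adjusted p = 0.00357). RFC3 had 51.5, 65.0 and 52.5 CPM with fenbendazole, against 22.7, 14.7 and 21.8 CPM in DMSO (log2 1.52 ± 0.211, adjusted p = 0.0104). RFC4 rose 2.76-fold. The calls of RFC3 and RFC4 were lost without each fenbendazole library, and that of RFC4 without DMSO 10 (adjusted p from 0.0590 to 0.0915).

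RFC1, the large subunit of the loader, and RFC2 were higher in every fenbendazole library but missed the threshold. RFC1 had 194, 199 and 196 CPM with fenbendazole, against 126, 91.7 and 147 CPM in DMSO. Its log2 fold change was 0.70 ± 0.178 (adjusted p = 0.0814). RFC2 had 28.9, 34.1 and 30.5 CPM with fenbendazole, against 19.3, 22.5 and 17.2 CPM in DMSO (log2 0.66 ± 0.172, adjusted p = 0.0826). Without DMSO 11 the log2 fold changes were 0.54 ± 0.0759 for RFC1 and 0.78 ± 0.128 for RFC2, and both passed (adjusted p = 0.000184 and 0.000669). Per length, RFC1 made up 26.0%, 26.2% and 26.3% of the summed FPKM of the 5 RFC genes with fenbendazole, against 36.04%, 30.7% and 39.0% in DMSO. RFC4 made up 29.4%, 23.1% and 28.4% with fenbendazole, against 18.6%, 16.2% and 21.3% in DMSO. Both shares separated the groups (exact permutation p = 0.1 each, the smallest possible).

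In the maturation of Okazaki fragments FEN1, the flap nuclease, rose and LIG1, the ligase that seals the nick, did not pass. FEN1 (ENSG00000168496, chromosome 11, 61792911 to 61797238) had 82.2, 83.0 and 79.0 CPM with fenbendazole, against 32.0, 39.4 and 27.0 CPM in DMSO, a 2.48-fold difference (log2 1.31 ± 0.167, adjusted p = 0.00731). That call was lost without each fenbendazole library (adjusted p from 0.0583 to 0.0633). LIG1 had 59.5, 65.1 and 62.0 CPM with fenbendazole, against 40.2, 59.2 and 34.8 CPM in DMSO. DMSO 11 came within 1 CPM of the lowest treated library. The log2 fold change of LIG1 was 0.47 ± 0.209 (adjusted p = 0.245), and without DMSO 11 it was 0.73 ± 0.102 (adjusted p = 0.000159).

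Replication protein A, which coats single-stranded DNA, had a median log2 fold change of 0.77 over its 3 genes, lower than the 1.13 of all 49. RPA2 and RPA3 rose 1.71-fold and 2.21-fold. RPA3 had 10.7, 12.99 and 14.0 CPM with fenbendazole, against 6.02, 4.96 and 6.10 CPM in DMSO (log2 1.14 ± 0.211, adjusted p = 0.0272). RPA2 had 59.0, 51.0 and 60.2 CPM with fenbendazole, against 36.1, 32.7 and 30.8 CPM in DMSO (log2 0.77 ± 0.145, adjusted p = 0.0291). Both calls were lost without each fenbendazole library and without DMSO 10 and DMSO 12 (adjusted p from 0.0578 to 0.189). RPA1, the large subunit that binds DNA, had 114, 129.8 and 120.1 CPM with fenbendazole, against 97.6, 94.1 and 72.7 CPM in DMSO. Its log2 fold change was 0.46 ± 0.150 (adjusted p = 0.142), and 0.51 ± 0.117 without DMSO 11 (adjusted p = 0.0115).

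Among fork protection genes CLSPN, WDHD1 and TIMELESS rose and TIPIN did not pass. CLSPN, which encodes claspin, the mediator that brings CHK1 to ATR at stalled forks (ENSG00000092853, chromosome 1, 35720218 to 35769978), had 90.0, 84.4 and 93.2 CPM with fenbendazole, against 21.4, 14.3 and 21.1 CPM in DMSO. It rose 4.72-fold (log2 2.24 ± 0.191, adjusted p = 0.00140). WDHD1, also called AND-1, which links the helicase to polymerase alpha, had 56.1, 54.8 and 54.0 CPM with fenbendazole, against 17.2, 12.3 and 19.9 CPM in DMSO (log2 1.74 ± 0.202, adjusted p = 0.00495). In both genes the treated libraries were nearly equal and the lowest control was DMSO 11. TIMELESS, which travels with the helicase, had 122, 120.1 and 130.1 CPM with fenbendazole, against 60.9, 65.9 and 44.8 CPM in DMSO (log2 1.11 ± 0.167, adjusted p = 0.0129). The call of TIMELESS was lost without each fenbendazole library and without DMSO 10 (adjusted p from 0.0592 to 0.0942). TIPIN, the binding partner of TIMELESS, had 15.9, 17.2 and 19.1 CPM with fenbendazole, against 13.4, 6.49 and 8.33 CPM in DMSO. Its groups did not overlap, but DMSO 10 lay close to the treated libraries. With 6 libraries its log2 fold change was 0.88 ± 0.286 (adjusted p = 0.138), and without DMSO 11 it was 0.67 ± 0.198 (adjusted p = 0.0258).

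Other genes of replication outside these 49 gave 10 rises and 0 falls among 31, where 3.11% of all tested genes rose and 0.921% fell. Their median log2 fold change was 0.88, against -0.06 over all tested genes. This list too was chosen with earlier results of these data known, so it is not an independent check. Of the 10, 4 were among the 6 genes of clamp loading, unloading and clamp-directed ubiquitination, and 3 among the 7 initiation factors. PCLAF, a small protein that binds PCNA, had 50.9, 42.2 and 48.5 CPM with fenbendazole, against 12.5, 9.83 and 8.93 CPM in DMSO, a 4.52-fold difference (log2 2.18 ± 0.191, adjusted p = 0.00144). DTL, the substrate receptor of the ubiquitin ligase that destroys CDT1 on PCNA, had 63.8, 62.3 and 68.4 CPM with fenbendazole, against 21.2, 11.4 and 19.4 CPM in DMSO (log2 1.91 ± 0.242, adjusted p = 0.00732). DSCC1, of the alternative clamp loader, had 16.95, 16.7 and 15.1 CPM with fenbendazole, against 4.90, 3.29 and 5.50 CPM in DMSO (log2 1.84 ± 0.244, adjusted p = 0.00843). In these 3 genes every treated library was far above the controls.

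TICRR, needed for firing, had 34.0, 30.4 and 34.3 CPM with fenbendazole, against 14.8, 14.2 and 10.6 CPM in DMSO (log2 1.31 ± 0.186, adjusted p = 0.0105). POLE3, a polymerase epsilon subunit, had 107, 106 and 104 CPM with fenbendazole, against 60.2, 50.5 and 56.2 CPM in DMSO (log2 0.93 ± 0.125, adjusted p = 0.00865). POLE4, the other small epsilon subunit, named after its values were seen, overlapped between the groups, with 7.94, 9.45 and 7.36 CPM with fenbendazole, against 6.30, 14.5 and 6.25 CPM in DMSO (log2 -0.14 ± 0.363, adjusted p = 0.851). DDX11, a helicase whose reads may be shared with near-identical copies, had 94.1, 89.2 and 88.2 CPM with fenbendazole, against 45.2, 44.5 and 40.5 CPM in DMSO (log2 1.06 ± 0.122, adjusted p = 0.00464), and is uncertain for that reason. CHTF8, also of the alternative loader, had 51.8, 51.4 and 44.9 CPM with fenbendazole, against 52.2, 60.5 and 30.5 CPM in DMSO, with overlapping groups (log2 0.045 ± 0.248). MCM9 and CHTF8 had the largest p of this list, with adjusted p of 0.892 and 0.931.

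POLD4, the smallest polymerase delta subunit, is named here because of its value. It was the only gene of the 31 that was lower at an unadjusted p of 0.05. It had 11.5, 14.9 and 10.6 CPM with fenbendazole, against 22.4, 32.6 and 18.7 CPM in DMSO. Its groups were thus separate with fenbendazole below, a pattern seen in 15.5% of all tested genes. With 6 libraries its log2 fold change was -0.998 ± 0.258 (edgeR adjusted p = 0.0824). DESeq2 called it lower (adjusted p = 0.00882), where 4.28% of all tested genes fell. The edgeR fit without DMSO 11 also called it lower (log2 -0.73, adjusted p = 0.00768), where 9.23% of all fell. So did the fit with GC and length offsets (log2 -0.70, adjusted p = 0.00561), where 9.5% of all fell.

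The number of these 31 genes that rose was 2 without fenbendazole 7, 8 or 9, where 0.763%, 0.787% and 0.793% of all tested genes rose. It was 7 without DMSO 10 (1.4% of all rose), 20 without DMSO 11 (13.1%) and 12 without DMSO 12 (2.32%). DDX11 lost its call without fenbendazole 7 and 8 (adjusted p = 0.0501 to 0.0559), DTL without fenbendazole 9 (adjusted p = 0.0576), and DSCC1, POLE3 and TICRR without each fenbendazole library (adjusted p from 0.0548 to 0.0802). The remaining genes called with 6 libraries, MTBP, DBF4B, ATAD5 and DNA2, also lost their calls without each fenbendazole library.

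Several of the 49 genes share their place with others. The annotated spans of 14 overlap another tested gene, and the sources do not say whether counting used strand. RPA3 lies across from UMAD1 over 77897 bases, and both have similar levels, at 9.12 and 9.44 CPM on average over the 6 libraries. The end of PRIM1 overlaps NACA, a gene at 397 CPM, by 333 bases. PRIM1 also overlaps an unnamed gene of the same strand by 10240 bases, at 1.26 CPM on average. FEN1 overlaps FADS2 on the same strand over 4259 bases, nearly its whole span. POLA2 shares 43662 bases, nearly its whole span, with an unnamed gene on the same strand (ENSG00000285816), at 5.91 CPM on average against 15.3 CPM for POLA2. POLD3 and RFC3 overlap unnamed genes of the same strand by 4683 and 4636 bases, at 7.61 and 2.47 CPM on average. Counts of the genes named here are uncertain, as reads could be assigned to either partner. The remaining genes overlap partners on the opposite strand only, by 4 to 933 bases. Copies listed as pseudogenes of 10 of the 49 genes, PCNA among them, had means below 0.04 CPM.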

How the data were processed

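Whole-number counts per gene and FPKM values of 6 SKOV3 libraries were taken as the authors deposited them, in 1 table. The counts are not normalised, and the FPKM values are scaled by the authors for gene length and library size, per the file headers. CASAVA 1.8, HISAT2 2.1.0, StringTie 1.3.4b, edgeR and GRCh38 are named, per the submitters' processing notes. The sources used here name no counting program, strand setting or annotation release.

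Counts were filtered and TMM-scaled with edgeR 4.0.16 in R 4.3.3, which kept 17363 genes, and tested by the robust quasi-likelihood F test with Benjamini-Hochberg adjustment over all of them (threshold 0.05). SE came from the F statistic. CPM uses TMM library sizes, where 3 counts equal 0.132 to 0.223 CPM. The members and lists were chosen with earlier results of these data known. Values in every library, fold change, SE and adjusted p were given for genes with the 3 smallest p or the largest p of each functional group; of the other replication genes, the 6 smallest and 2 largest p were named, and further genes are given more briefly. DESeq2 1.42.0, limma 3.58.1, other scalings, filters and thresholds, FPKM, GC and length offsets (GENCODE v29) and each library left out were the alternatives. Replicate pairs all differed by more than sampling noise. The labels do not say that libraries came from separate cultures, so p-values measure the spread between libraries, which may be technical. Figures used matplotlib 3.10.9. Promoters came from RefSeq, 1 window per gene, the nearest to the gene's deposited 5′ end.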

Additional observations from a re-analysis of the deposited data

How the results depend on the processing

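No paired analysis was possible because libraries 7 to 9 and 10 to 12 carry different numbers. With 6 libraries, 35 of the 49 genes rose, 10 of the 31 other replication genes rose and 0 fell, and 540 genes in all were higher and 160 lower. An adjusted p of 0.01 gave 18 of 49, 5 of 31, and 193 and 17 in all. A test against a 1.5-fold change gave 17 of 49, 5 of 31, and 200 and 14 in all. Both are stricter by construction. DESeq2 gave 41 of 49, 15 higher and 1 lower of 31, and 998 and 699 in all. GC and length offsets gave 46 of 49, 19 and 1 of 31, and 2048 and 1613 in all. Upper-quartile scaling gave 32 of 49, with 455 higher and 231 lower in all, and limma-voom 36. In none of the fits run was any of the 49 called lower. Leaving out 1 library gave 12 to 46 of 49, 2 to 20 higher and 0 to 1 lower of 31, and 139 to 2313 higher and 8 to 1633 lower in all.

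The log2 fold changes that changed sign were near 0. ORC4 was at -0.024 and -0.023 with FPKM at a pseudocount of 1 and 0.1. ORC2 was at -0.0184 and ORC5 at -0.031 with GC and length offsets. CHTF8 was at -0.0204 with upper-quartile scaling and -0.13 with FPKM. Leaving out 1 library gave -0.064 to 0.37 for ORC5, -0.15 to 0.057 for MCM9 and -0.19 to 0.25 for CHTF8. Some differences in subunit share, fenbendazole minus DMSO, changed sign too. For MCM2, MCM5 and POLD1 they were -1.52, -0.819 and -0.634 percentage points of FPKM with 6 libraries. Without DMSO 11 these were 0.143, 0.254 and 1.87. For POLA1 and PRIM1 they were -1.24 and 1.79 as a percent of FPKM, and 0.908 and -0.517 as a percent of CPM. The cause was not tested. With 3 libraries a group, exact permutation tests cannot go below 0.1.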
